A study of Rattus norvegicus with 6 samples.

Results

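The genes of glycolysis, glucose uptake, lactate handling and glycogen metabolism were followed in H9c2 cells, an established rat cardiomyoblast line, with and without antisense knockdown of the long non-coding RNA Tug1. The 35 genes were taken by symbol from the table of 40456 genes, and each of the 35 was found there. Both groups were H9c2 (2-1) cells labelled WT that had spent 5 days in medium with 1% serum and 1 µM retinoic acid, and both received 25 nM of a locked nucleic acid gapmer with a lipid reagent 24 h before harvest. The control group (3 libraries) received a negative control gapmer, and the knockdown group (3 libraries) received a gapmer against Tug1. Gapmers are short antisense DNA strands with modified ends, and the RNA they pair with is cut by RNase H. A single Tug1 gapmer and a single cell line were used, and no label says whether the numbered libraries came from separate cultures, so p-values measure the spread between these libraries, which may be technical. Both gapmers are shown because they are the only labelled difference between the groups, each 16 bases long and written 5′ to 3′ from the submitters' protocol, with no letter singled out.
Tug1 gapmer: attcagtagacagcta
control gapmer: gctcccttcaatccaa

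Glycolysis converts glucose to pyruvate in the cytosol and yields ATP without oxygen, and lactate dehydrogenase can then turn pyruvate into lactate, which leaves or enters the cell through monocarboxylate carriers. Several of its steps are catalysed by isozymes, enzymes of the same activity encoded by different genes. Differentiating muscle typically replaces widely expressed isozymes with muscle forms, and muscle stores glucose as glycogen and breaks it down by phosphorylase. Glucose import by the insulin-responsive carrier GLUT4 and trapping by hexokinase 2 are also features of heart and skeletal muscle.

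The labels call the cells cardiomyocytes. Among 12 cardiomyocyte markers, Nppb had no count in any library, and Myh6, Myh7, Nkx2-5 and Ryr2 were at or under 3 counts in every library, the limit taken here for detection. The 4 markers of that list that were tested averaged 349 CPM (Tnnt2), 335 CPM (Tnnc1), 23.4 CPM (Pln) and 9.22 CPM (Actc1) in controls. Of the 10 skeletal muscle markers 9 were tested, including Myog and Myh3. Of 5 leukocyte and macrophage markers, Ptprc and Adgre1 had no count, while Cd14, Csf1r and Cd68 averaged 68.0, 7.65 and 3.60 CPM in controls. Each library held between 12978548 and 13544337 counts. Levels are in CPM, each gene's count relative to a common library size, and 3 counts corresponded to 0.217 to 0.232 CPM, for counting error only. Tug1 itself had 54.7, 52.0 and 55.4 CPM in control replicates 1 to 3 and 11.9, 11.2 and 12.5 CPM in knockdown replicates 1 to 3, a log2 fold change of -2.19, with SE 0.0786 and adjusted p 4.39e-16 by edgeR. The libraries thus follow their labels. Cells were measured in bulk, so fewer cells of a type and less RNA per cell cannot be told apart.

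Of the 35 genes, 33 had enough counts to be tested, and 25 of these differed between the groups at an adjusted p under 0.05 (quasi-likelihood test of edgeR), of which 14 were higher and 11 lower after knockdown. The genes did not move together. Their median log2 fold change, knockdown over control, was 0.01, beside 0.00 for all tested genes, and their median absolute log2 fold change was 0.33, beside 0.34. Across all 14216 tested genes 61.7% were called, 30.8% higher and 30.9% lower, so the share called here, 75.8% (42.4% higher and 33.3% lower), has to be read against a transcriptome in which most genes differed. These are abundant transcripts: among tested genes averaging 10 CPM or more, 70.7% were called, and 74.2% of the 31 members above that level, which is near the background. The 3 control and 3 knockdown values did not overlap for 25 of the 33, beside 65.6% of all tested genes. Only Pfkfb1 reached an absolute log2 fold change of 1, beside 9.8% of all tested genes that were called and reached it. The 35 genes together took 1.53% to 1.58% of the reads of each control library and 1.40% to 1.52% of those of each knockdown library.

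**Figure D1:**
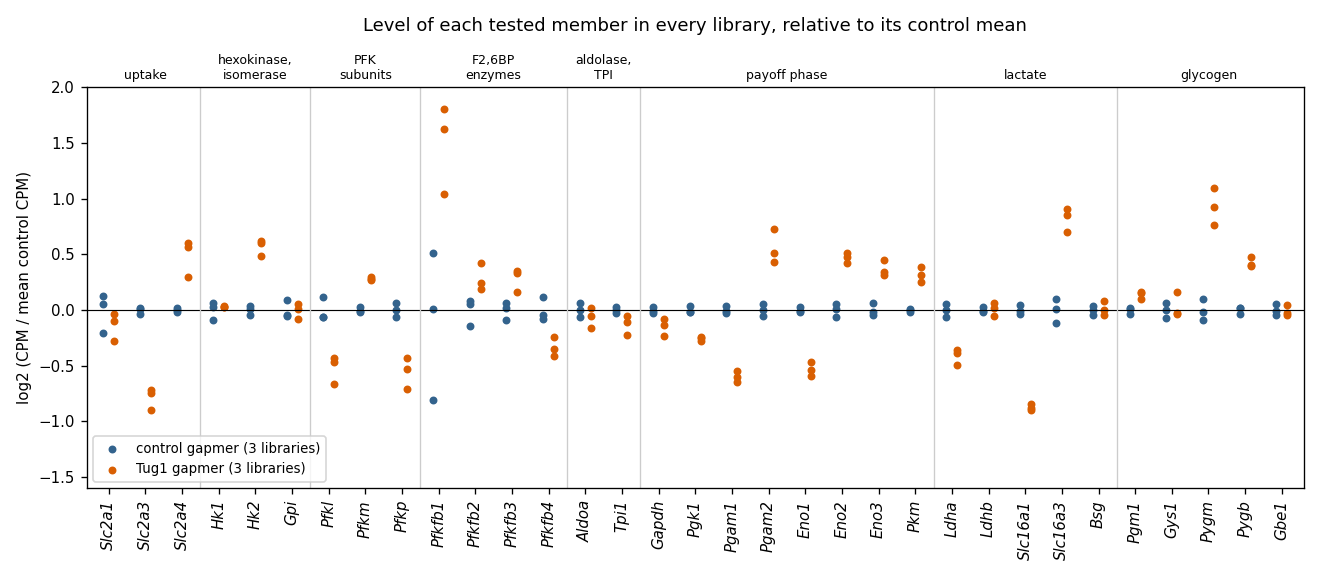
Level of each of the 33 tested genes in every library, as log2 of CPM over the gene's mean control CPM, in pathway order. Blue points are the 3 control libraries and orange points the 3 knockdown libraries. In the knockdown libraries Pgam1 lies below 0 and Pgam2 above it, whereas Pygm and Pygb both lie above.

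**Figure D2:**
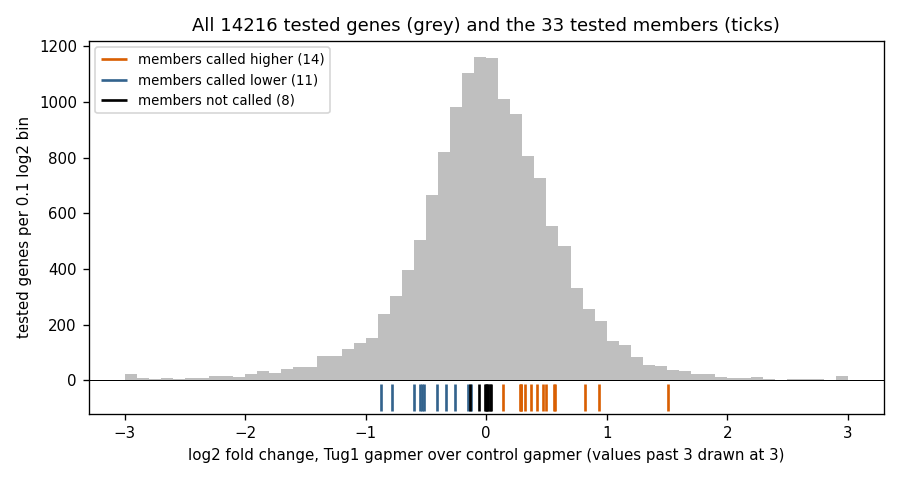
Histogram of log2 fold changes of all 14216 tested genes in grey, with values beyond 3 drawn at 3, and ticks for the 33 tested members. The ticks of the 14 genes called higher and the 11 called lower lie on both sides within the main body of the histogram.

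Glucose carriers at the plasma membrane diverged. Slc2a3, which encodes the high-affinity carrier GLUT3, had 90.1, 93.7 and 93.1 CPM in control replicates 1 to 3 and 56.2, 49.4 and 55.2 CPM in knockdown replicates 1 to 3. The groups were well apart, and the log2 fold change was -0.78, with SE 0.0593 and adjusted p 1.01e-10 by edgeR. Slc2a4, which encodes GLUT4, had 29.2, 28.9 and 29.7 CPM in controls and 44.4, 43.2 and 35.9 CPM after knockdown. It rose by 0.49 on the log2 scale (SE 0.0796, edgeR adjusted p 1.17e-05), with knockdown replicate 3 the lowest of its group yet above every control. Slc2a1, which encodes the widely expressed carrier GLUT1, had 41.9, 44.0 and 35.01 CPM in controls and 37.7, 39.4 and 33.3 CPM after knockdown, and these ranges overlapped. Its log2 fold change of -0.13 (95% interval -0.30 to 0.04) was not called. Without control replicate 3, its lowest control library, Slc2a1 was called lower at -0.22 (edgeR adjusted p 0.0237, range 0.0237 to 0.572 over all alternatives).

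The hexokinases phosphorylate glucose and so trap it in the cell. Hk2, the form abundant in muscle, had 137, 143 and 145 CPM in controls and 215, 218 and 199 CPM after knockdown. Every knockdown library was above every control, a log2 fold change of 0.57, with SE 0.0499 and adjusted p 1.10e-09 by edgeR. Hk1, the widely expressed form, had 95.03, 103 and 106 CPM in controls and 103, 104 and 103 CPM after knockdown, with a log2 fold change of 0.03 (95% interval -0.08 to 0.14). With an offset that removes the trend of fold change with gene length across all tested genes of known span, Hk1 was called lower at -0.16 (edgeR adjusted p 0.00949, range 0.00949 to 0.859). Gpi, the isomerase that turns glucose 6-phosphate into fructose 6-phosphate, averaged 494 ± 27.3 CPM with the control gapmer and 492 ± 23.4 CPM with the Tug1 gapmer (SD, n = 3). Its 95% interval ran from -0.11 to 0.09 on the log2 scale.

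Phosphofructokinase, the main control point of the pathway, is a tetramer drawn from 3 subunits. All 3 genes were called, beside 70.7% of all tested genes averaging 10 CPM or more. Pfkm, the muscle subunit, had 195, 195 and 200.1 CPM in controls and 242, 237 and 239 CPM after knockdown. Its rise was small and tight, 0.29 on the log2 scale (SE 0.0444, edgeR adjusted p 7.18e-06). Pfkl, the liver subunit, had 136, 153 and 136 CPM in controls and 103, 105 and 89.5 CPM after knockdown, a log2 fold change of -0.51 (SE 0.0624). Pfkp, the platelet subunit, had 46.3, 44.2 and 48.4 CPM in controls and 28.3, 34.4 and 32.2 CPM after knockdown, a log2 fold change of -0.55 (SE 0.0751). For both falling subunits the highest knockdown library was under the lowest control.

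The bifunctional PFKFB enzymes set the level of fructose 2,6-bisphosphate, the strongest activator of phosphofructokinase. All 4 of their genes were called, 3 higher and 1 lower, beside 61.7% called of all tested genes. Pfkfb2, the heart form, went from 47.2 ± 3.86 to 57.6 ± 4.93 CPM (SD, n = 3), a difference of 0.29 on the log2 scale. Pfkfb3, the inducible form, went from 52.1 ± 2.75 to 63.4 ± 4.48 CPM (SD, n = 3), a difference of 0.28 on the log2 scale, but with the length offset it was at 0.12 and no longer called (edgeR adjusted p 0.0966, range 7.3e-05 to 0.0966). Pfkfb1 was scarce: its raw counts were 10, 7 and 4 among the controls and 23, 15 and 25 after knockdown, in replicate order. Its log2 fold change of 1.51 has a wide 95% interval, 0.72 to 2.30. Pfkfb4 fell from 12.7 ± 0.911 to 10.1 ± 0.611 CPM (SD, n = 3), a difference of -0.33 on the log2 scale. That call was lost without control replicate 1 (-0.27) and without knockdown replicate 3 (-0.29), with edgeR adjusted p values of 0.0762 and 0.0546 in a range of 0.00367 to 0.0762.

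Aldolase and triosephosphate isomerase, which split and interconvert the 3-carbon sugars, moved little. Aldoa, the muscle aldolase, averaged 2104 ± 94.8 CPM with the control gapmer and 2015 ± 127 CPM with the Tug1 gapmer (SD, n = 3), with a 95% interval of -0.16 to 0.04 for the log2 fold change. The call was the same in all alternatives, although the sign turned with the length offset (0.07). Aldoc, the brain aldolase, was not tested, with 2 to 6 counts in every library. Tpi1 went from 631 ± 10.9 to 579 ± 34.2 CPM (SD, n = 3), a difference of -0.12 on the log2 scale (edgeR adjusted p 0.0221). Tpi1 was not called with library totals in place of TMM scaling (-0.07), without control replicate 2 (-0.11) or without knockdown replicate 3 (-0.08), and with the length offset its sign turned (0.04). Its edgeR adjusted p ranged from 0.00679 to 0.362 over the alternatives.

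All 8 genes of the ATP-yielding phase were called, 4 higher and 4 lower, beside 70.7% called of all tested genes averaging 10 CPM or more. The largest falls were those of Pgam1 and Eno1, the widely expressed phosphoglycerate mutase and enolase. Pgam1 had 1184, 1233 and 1197 CPM in controls and 796, 823 and 768 CPM after knockdown, a log2 fold change of -0.60, with SE 0.0417 and adjusted p 2.71e-11 by edgeR. Eno1 had 1539, 1591 and 1557 CPM in controls and 1073, 1129 and 1034 CPM after knockdown, a log2 fold change of -0.53, with SE 0.0422 and adjusted p 2.10e-10 by edgeR. Both genes lost about as much in each knockdown library.

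The muscle counterparts of these enzymes moved the other way. Pgam2, the muscle mutase, had 13.4, 13.9 and 14.4 CPM in controls and 19.9, 23.0 and 18.7 CPM after knockdown, a log2 fold change of 0.56, with SE 0.0990 and adjusted p 3.65e-05 by edgeR. Eno3, the muscle enolase, had 55.0, 56.0 and 59.3 CPM in controls and 72.0, 77.7 and 70.5 CPM after knockdown, a log2 fold change of 0.37, with SE 0.0594 and adjusted p 1.10e-05 by edgeR. Eno2, the enolase best known from neurons, also rose, from 105.9, 115 and 111 CPM to 158, 154 and 149 CPM, a log2 fold change of 0.47 (SE 0.0511). No knockdown library of these 3 genes reached down to a control.

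Pkm encodes both the M1 and the M2 pyruvate kinase through alternative exons, which gene counts cannot separate. It had 888, 891 and 878 CPM in controls and 1103, 1155 and 1054 CPM after knockdown, a log2 fold change of 0.32, with SE 0.0424 and adjusted p 8.37e-07 by edgeR. Pgk1, the first ATP-yielding kinase, fell from 648 ± 12.96 to 542 ± 7.47 CPM (SD, n = 3), a difference of -0.26 on the log2 scale. Gapdh, the dehydrogenase often used as a reference gene, had 3413, 3497 and 3363 CPM in controls and 3119, 3232 and 2908 CPM after knockdown. The groups did not overlap, and the log2 fold change was -0.15, with SE 0.0431 and adjusted p 0.00438 by edgeR. Gapdh was lower under every scaling tried, at -0.15 with DESeq2 size factors and -0.10 with library totals, but with the length offset it was at -0.01 and not called (edgeR adjusted p 0.850, range 4.68e-05 to 0.850). Several of these enzymes, Gapdh among them, have processed pseudogenes, and how reads matching several places were counted is not given in the sources used here.

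**Figure D3:**
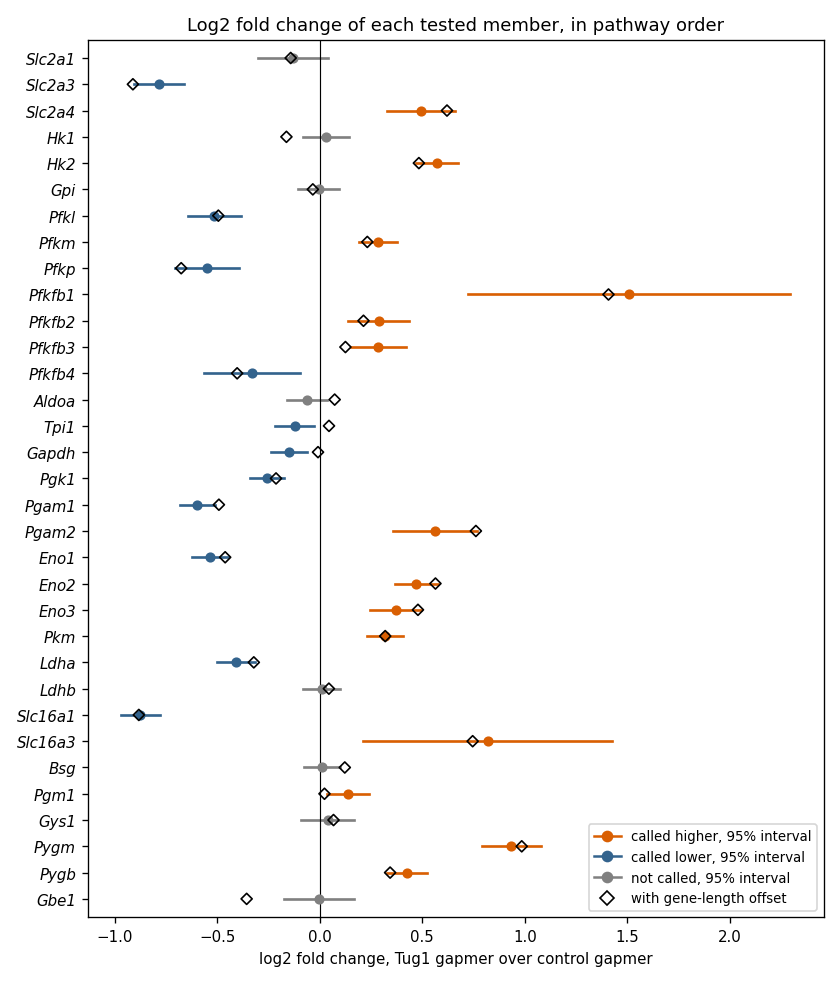
Log2 fold change, knockdown over control, of each tested gene in pathway order, with its 95% interval. Orange marks the 14 genes called higher, blue the 11 called lower and grey the 8 not called, and open diamonds show the value with the length offset. The diamonds lie near the filled points for most genes and leave the interval for 10, Hk1, Gbe1, Tpi1 and Gapdh among them.

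Lactate handling showed the most negative value of the whole group. Slc16a1, which encodes the lactate and pyruvate carrier MCT1, had 319, 311 and 330 CPM in controls and 178, 174 and 172 CPM after knockdown. All 3 knockdown libraries were far under all 3 controls, a log2 fold change of -0.88, with SE 0.0453 and adjusted p 2.10e-13 by edgeR. Slc16a3, which encodes MCT4, the carrier known for lactate export from glycolytic cells, was scarce, with 14, 13 and 12 counts in controls and 26, 22 and 24 counts after knockdown. Its log2 fold change of 0.82 (95% interval 0.21 to 1.43, edgeR adjusted p 0.0187) was not called by DESeq2's Wald test (0.82, adjusted p 0.0831), without control replicate 3 (0.77) or without knockdown replicate 1 (0.78), with a range of adjusted p from 0.0129 to 0.0831. Bsg encodes basigin, the chaperone that brings these carriers to the membrane, and averaged 1518 ± 39.3 CPM with the control gapmer and 1530 ± 69.6 CPM with the Tug1 gapmer (SD, n = 3). Its 95% interval was -0.08 to 0.10 on the log2 scale, and with the length offset it was called higher at 0.12 (edgeR adjusted p 0.00959, range 0.0037 to 0.984).

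Lactate dehydrogenase is a tetramer of A and B subunits. Ldha, whose subunit predominates in glycolytic tissue, had 985, 1066 and 1026 CPM in controls and 798, 787 and 731 CPM after knockdown, a log2 fold change of -0.41, with SE 0.0449 and adjusted p 4.30e-08 by edgeR. Ldhb, whose subunit predominates in the heart, averaged 532 ± 8.15 CPM with the control gapmer and 535 ± 21.3 CPM with the Tug1 gapmer (SD, n = 3). Its 95% interval ran from -0.08 to 0.10 on the log2 scale.

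Glycogen breakdown genes were higher and the synthesis genes were not called. Pygm, the muscle glycogen phosphorylase, had 65.7, 75.0 and 69.1 CPM in controls and 133, 149 and 119 CPM after knockdown. That was a log2 fold change of 0.93, with SE 0.0698 and adjusted p 8.41e-11 by edgeR, the highest among the members at 10 CPM or more. Pygb, the brain phosphorylase, rose from 137, 142 and 142 CPM to 185, 195 and 186 CPM, a log2 fold change of 0.43, with SE 0.0478 and adjusted p 6.37e-08 by edgeR. Pygl, the liver phosphorylase, was not tested, with 1 to 4 counts in every library.

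Pgm1, which links glucose 1-phosphate from glycogen to glycolysis, went from 125 ± 2.47 to 138 ± 3.27 CPM (SD, n = 3), a difference of 0.14 on the log2 scale (edgeR adjusted p 0.0179). Pgm1 was not called with the length offset (0.02), with no filter on low counts (0.13), without control replicate 1 (0.12) or without knockdown replicate 2 (0.13), with edgeR adjusted p values from 0.00164 to 0.699 over the alternatives. Gys1, the muscle glycogen synthase, averaged 69.7 ± 3.19 CPM with the control gapmer and 71.5 ± 5.73 CPM with the Tug1 gapmer (SD, n = 3), with a 95% interval of -0.09 to 0.17. Gbe1, the branching enzyme, was at 21.6 ± 0.780 and 21.5 ± 0.717 CPM (SD, n = 3), with a 95% interval of -0.18 to 0.17. With the length offset Gbe1 was called lower at -0.36 (edgeR adjusted p 0.000577, range 0.000577 to 0.969).

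The balance within isozyme families was compared inside each library, where scaling has no effect, as the log2 ratio of counts of 2 genes. This is a ratio of reads and not of molecules, since the genes differ in length. Of 13 pairs compared, 2 held a gene under 10 counts in every library (Aldoa with Aldoc and Pygl with Pygb). In all 11 others the 3 control and 3 knockdown ratios did not overlap. Among all tested genes taken singly, 65.6% did not overlap either. The share over gene pairs in general was not computed, and some of the pairs share a gene, so the count is a description. With 3 libraries against 3, an exact two-sided permutation test cannot go below p = 0.1, the value of each of these 11 pairs (0.108 with Benjamini-Hochberg adjustment over the 13 pairs), so none could pass 0.05.

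The mutase pair shifted most among the enzymes. The log2 ratio of Pgam2 to Pgam1 was -6.46, -6.46 and -6.37 in controls and -5.32, -5.16 and -5.35 after knockdown, a shift of 1.15 towards the muscle gene, or a 2.22-fold change of the ratio. The ratio of Eno3 to Eno1 shifted by 0.90, from -4.78 ± 0.0600 to -3.88 ± 0.0188 (SD, n = 3), and that of Eno2 to Eno1 by 1.01. Pfkm gained on Pfkp by 0.84 and on Pfkl by 0.80, and Pygm gained on Pygb by 0.50 although both rose.

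The other pairs were those of uptake and lactate genes. Slc2a4 and Slc2a1 changed places in read count, from a log2 ratio of -0.45 ± 0.193 to 0.16 ± 0.0686 (SD, n = 3), and Slc2a3 lost 0.66 to Slc2a1. The ratio of Hk1 to Hk2 went from -0.48 ± 0.0384 to -1.02 ± 0.0668 (SD, n = 3). The ratio of Ldhb to Ldha went from -0.95 ± 0.0569 to -0.53 ± 0.0170 (SD, n = 3), a gain of 0.42 for the heart-type subunit gene. The ratio of Slc16a1 to Slc16a3 fell by 1.68, from 8.27 ± 0.134 to 6.59 ± 0.0993 (SD, n = 3), with Slc16a3 at 12 to 26 counts.

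**Figure D4:**
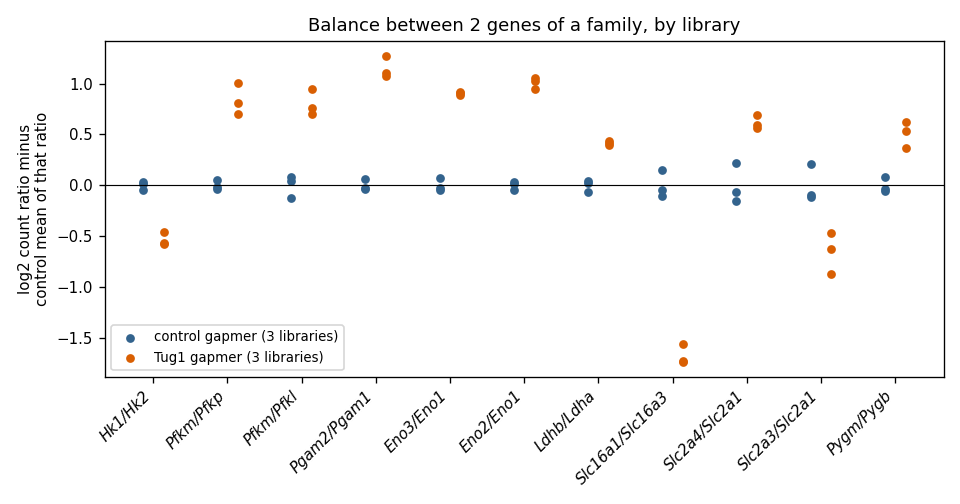
Log2 ratio of the counts of 2 genes of a family in each library, minus the control mean of that ratio, for the 11 pairs with enough counts. Blue points are control and orange points knockdown libraries. The groups do not overlap in any of the 11, and Pgam2 to Pgam1 lies 1.15 above its control mean.

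Genes of muscle differentiation moved alongside. Of the 9 tested skeletal muscle markers 7 were higher, among them Myog (0.82), and 1 was lower, the myogenic factor Myod1 (-0.32), beside 30.8% higher and 30.9% lower of all tested genes. With the length offset Myod1 was at -0.13 and not called (edgeR adjusted p 0.0992). The summed level of that list was 899.9 to 904 CPM in controls and 1323 to 1403 CPM after knockdown. Of the 4 tested cardiomyocyte markers 2 were higher and 1 lower, with summed levels of 690.4 to 752 and 729 to 808 CPM. Of the 7 tested fibroblast markers 2 were higher and 3 lower, with summed levels of 49840 to 51350 and 45740 to 49000 CPM. Of 5 tested smooth muscle markers 3 were higher and 0 lower, with summed levels of 958.6 to 1052 and 1114 to 1270 CPM. Of 3 tested macrophage and leukocyte markers Cd68 was higher (1.09) and Cd14 lower (-1.03), with summed levels of 77.8 to 81.4 and 49.7 to 50.1 CPM. The part of these markers in the isozyme shifts was not tested.

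Gene length was the other property that moved with fold change in these libraries. Across 13090 tested genes with a known genomic span, Spearman's rho between span and log2 fold change was 0.269, against 0.0394 across the 33 members. After the length offset these values were 0.00425 and -0.191. The offset thus removed a trend of all genes that the members hardly showed, and left them with a negative value. Genes share libraries and are not independent, and all of these values are descriptions. With the length offset 24 members were called, 13 higher and 11 lower, and 26 of the 33 had the same call as without it. Of the 13090 genes that entered that fit 62.1% were called.

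Promoter sequence is shown for 4 members, because Pgam1 and Pgam2 form the enzyme pair with the largest shift, and Ldha and Slc16a1 are the lactate genes that fell. Windows are the 250 bases before a RefSeq transcript start, in the assembly GRCr8, and 32 members had at least 1. Slc2a3, Slc2a4 and Pgk1 had none. The letters searched were ACGTG and GCGTG, the core bound by hypoxia-inducible factors at many glycolytic genes, on both strands. CACGTG reads ACGTG on each strand, so it counts as 2 overlapping matches and is also an E-box. After the isozyme directions had been seen, CAGCTG, an E-box favoured by myogenic factors, and CTATTTTTA, a core of MEF2 sites, were added. Capitals mark ACGTG and GCGTG, read on either strand, in Pgam1, Ldha and Slc16a1, and CTATTTTTA in Pgam2.
Pgam1 (chr1:250672902-250673151, plus strand): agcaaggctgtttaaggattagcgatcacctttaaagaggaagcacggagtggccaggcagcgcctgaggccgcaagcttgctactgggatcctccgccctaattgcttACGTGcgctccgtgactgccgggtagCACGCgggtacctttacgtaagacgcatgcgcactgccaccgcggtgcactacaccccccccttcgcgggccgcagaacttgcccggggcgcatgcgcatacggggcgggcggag
Pgam2 (chr14:84897875-84898124, minus strand): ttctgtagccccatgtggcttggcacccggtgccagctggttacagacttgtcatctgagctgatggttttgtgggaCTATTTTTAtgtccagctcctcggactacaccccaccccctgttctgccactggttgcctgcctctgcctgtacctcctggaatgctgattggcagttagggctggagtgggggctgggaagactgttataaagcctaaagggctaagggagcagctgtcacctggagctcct
Ldha (chr1:106507842-106508091, plus strand): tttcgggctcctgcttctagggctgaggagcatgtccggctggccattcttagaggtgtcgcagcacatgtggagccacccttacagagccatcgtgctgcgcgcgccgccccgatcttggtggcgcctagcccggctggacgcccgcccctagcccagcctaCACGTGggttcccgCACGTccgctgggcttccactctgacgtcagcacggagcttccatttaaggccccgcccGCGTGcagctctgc
Slc16a1 (chr2:194812410-194812659, plus strand): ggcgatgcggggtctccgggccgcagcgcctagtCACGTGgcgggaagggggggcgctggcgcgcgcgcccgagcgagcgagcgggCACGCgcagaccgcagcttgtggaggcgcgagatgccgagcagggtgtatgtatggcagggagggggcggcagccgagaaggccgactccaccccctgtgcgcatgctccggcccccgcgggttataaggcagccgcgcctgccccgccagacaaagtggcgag

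Pgam1 had 1 match to ACGTG and 1 to GCGTG, starting 141 and 115 bases before the transcript start. Ldha had 3 matches to ACGTG and 1 to GCGTG, all within 87 bases of the start, and Slc16a1 had 2 and 1. Pgam2 had none of these, but held CAGCTG at 217 and 21 bases and CTATTTTTA at 173 bases before the start. Among members called lower, 8 of 10 windows (7 of 9 genes) held ACGTG or GCGTG, with a median GC content of 63.6%. Among members called higher, 6 of 13 windows did, with a median GC content of 54.0%, and among members not called, 7 of 11 windows did, with a median of 59.6%. The share was 52.6% over 12289 windows of tested genes and 36.7% over all 33469 windows. CAGCTG was in 0 of 10 windows of genes called lower and 2 of 13 of genes called higher (Pgam2 and Pygm) and 2 of 11 of genes not called (Gpi and Gys1), beside 12.0% of all windows. CTATTTTTA was in 1 member's window, that of Pgam2, and in 0.463% of all windows. These are counts of letters, and the difference in GC content goes with them; their part in the fold changes was not tested.

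Other genes of carbohydrate metabolism were followed in 9 related lists, of which 110 genes were tested and 79 called (71.8%, beside 61.7% of all genes), 43 higher and 36 lower. In the oxidative and non-oxidative pentose phosphate pathway, which makes NADPH and ribose, 7 of 13 tested genes were higher and 3 lower. Rbks, a ribokinase, rose by 0.66. Prps1 (-0.96) and Prps2 (-0.65), which use the pathway's ribose phosphate for nucleotide synthesis, fell. Tkt (0.47), Pgd (0.33) and Taldo1 (0.29), named after their values were seen, were higher too. Rpia (-0.45), an enzyme of the pathway itself and likewise named afterwards, was lower.

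Among other glycogen genes, 9 of 20 tested were higher and 7 lower (80% called, beside 61.7% of all tested genes). Gsk3b, a kinase that inhibits glycogen synthase, rose from 107 ± 4.82 to 198 ± 5.42 CPM (SD, n = 3), a difference of 0.89 on the log2 scale. Phka2, a subunit of the kinase that activates phosphorylase, rose by 0.87. All 5 phosphorylase kinase genes of the list were called higher, beside 30.8% of all tested genes (Phka1 0.52, Phkb 0.46, Phkg1 0.59 and Phkg2 0.48 besides Phka2). This group was named after its values were seen. Phkb was not called with the length offset (0.14, edgeR adjusted p 0.0791). The control and knockdown ranges of Phkg1 overlapped, at 25 to 58 counts per library. Ppp1r3d, a subunit that targets a phosphatase to glycogen, fell by 1.19, and Epm2a, the glycogen phosphatase laforin, rose by 1.09 at a level near 1 CPM.

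Uptake and lactate genes outside the 35 included some larger changes. Tbc1d4, the insulin-regulated brake on GLUT4 traffic, rose from 4.32 ± 0.819 to 9.55 ± 1.00 CPM (SD, n = 3), a difference of 1.14 on the log2 scale. The carriers Slc2a12 (0.80), Slc2a9 (0.71) and Slc2a13 (0.71) were called higher too, the last of these and Slc2a9 near the threshold and not with the length offset. In all, 4 of 12 tested genes of that list were higher and 2 lower (50% called, beside 61.7% of all tested genes). Among the lower was Txnip (-0.58), which restrains glucose uptake and was named after its value was seen. Among 7 tested lactate and monocarboxylate genes, 2 were higher and 1 lower (42.9% called). Slc16a7, which encodes the high-affinity carrier MCT2, rose from 11.5 ± 0.529 to 26.7 ± 0.697 CPM (SD, n = 3), a difference of 1.22 on the log2 scale, with SE 0.0900 and adjusted p 6.93e-11 by edgeR. Slc16a12, which encodes a creatine carrier of the same family, was called higher by 0.81 at a mean of 1.28 CPM but not with the length offset (0.66), and Emb, which encodes embigin, the chaperone of MCT2, fell by 0.41.

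Among other enzymes around glycolysis, 2 of 10 tested were higher and 5 lower (70% called, beside 61.7% of all tested genes). Adpgk, the ADP-dependent glucokinase, rose by 0.90, and Pc, pyruvate carboxylase, by 0.22, the latter not called with the length offset (0.03). Minpp1, a phosphatase of inositol phosphates and bisphosphoglycerate, fell from 204 ± 5.09 to 110.04 ± 4.46 CPM (SD, n = 3), a difference of -0.89 on the log2 scale, and Tigar, which removes fructose 2,6-bisphosphate, fell by 0.48. In the polyol, fructose and hexosamine branch, 5 of 14 tested genes were higher and 6 lower (78.6% called). Sord, sorbitol dehydrogenase, rose by 0.74, while Uap1 (-1.38) and Gnpnat1 (-0.83), enzymes of UDP-GlcNAc synthesis, and Galt (-0.61) fell. In the glycerol phosphate branch 2 of 5 were higher (40% called), Gpd1l (0.77) and Pgp (0.16). The control and knockdown ranges of Pgp overlapped, with knockdown replicate 3 (58.7 CPM) under control replicate 2 (60.5 CPM).

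Regulators did not move one way. Of 14 tested HIF, AMPK and carbohydrate-response genes 7 were higher and 4 lower (78.6% called, beside 61.7% of all tested genes). The largest changes at 1 CPM or more were those of Mlxip (0.44), a glucose-sensing transcription factor, and Egln2 (0.34), a HIF prolyl hydroxylase. Next came Arnt (0.30), the partner of the HIF alpha subunits, and Prkaa1 (-0.30), a catalytic subunit of AMPK. Hif1a, the HIF alpha subunit named for its role, averaged 145 ± 6.83 CPM with the control gapmer and 137 ± 6.41 CPM with the Tug1 gapmer (SD, n = 3), with a 95% interval of -0.19 to 0.03 for the log2 fold change, and was called lower with the length offset (-0.16, edgeR adjusted p 0.00792). Of 15 tested hypoxia-responsive genes outside glycolysis 5 were higher and 8 lower (86.7% called). Vegfa (0.67), an angiogenic growth factor, and Bnip3 (0.49), a mitophagy receptor, rose. Hilpda (-0.65), a lipid droplet protein, fell, and Ankrd37 (-0.67) was called lower near the threshold but not with the length offset.

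**Figure D5:**
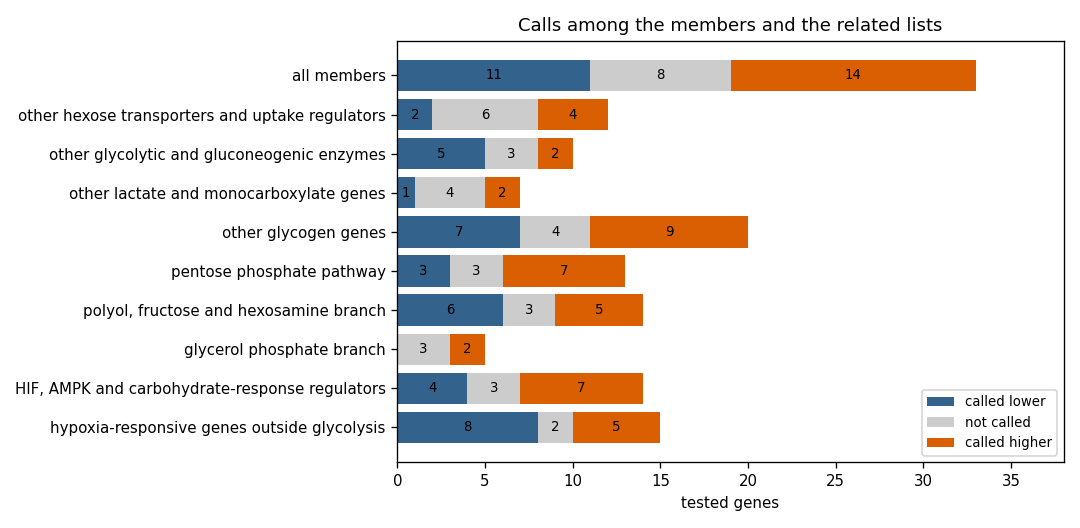
Number of tested genes called lower (blue), not called (grey) and called higher (orange) among the members and in each of the 9 related lists. Calls in both directions occur in every list but the glycerol phosphate branch, where 2 genes were higher and 3 not called.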

How the data were processed

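Poly-A RNA was sequenced from 3 control gapmer and 3 Tug1 gapmer libraries, with stranded libraries per the labels' protocols. The authors deposited raw counts per gene, as the whole-number values show. FastQC 0.11.7, fastp 0.14.1 and STAR 2.5 are named in the submitters' processing notes. The genome build and annotation, the tool that counted, its use of strand and its handling of reads with several matches are not given in the sources used here. The table had 0 unnamed entries and 0 columns of other samples.

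From these counts, genes kept by filterByExpr (at least 10 counts, 15 in total) were fitted in R 4.3.3 with edgeR 4.0.16, using TMM scaling, a quasi-likelihood test (two-sided, prior count 0.125) and Benjamini-Hochberg adjustment over all 14216 tested genes. A gene was called at an adjusted p under 0.05. Tested genes held 99.8% of counts or more, at 12.9 to 13.8 counts per CPM. Each group is given as its mean TMM-scaled CPM and sample SD. Isozyme ratios used counts plus 0.5. Alternatives were DESeq2 size factors, library totals, DESeq2 1.42.0, limma-voom (limma 3.58.1), no filter, a filter at a mean of 1 CPM, a threshold of 0.01, a replicate block, each library left out, and a length offset (lowess, span 0.3) on GRCr8 gene spans, which 92.1% of tested genes had, alone and with the block. On simulated counts the fit recovered 70.0% of 200 genes changed by 0.5 on the log2 scale (of 14007 genes tested) and 90.5% of 200 changed by 1 (of 14020). False calls were 4.76% and 6.7% of the calls. In these data 61.7% of genes were called, so the simulation does not check scaling or recovery in that setting.

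The members and lists were chosen with earlier results of these data known. All tested members were named, as were the 4 called genes of largest absolute log2 fold change at a mean of 1 CPM or more in each related list, except 1 that is not reported here. Of the list names, 1 was matched by an older symbol (Pc) and 2, Car9 and Car12, were not matched and not used here.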

Additional observations from a re-analysis of the deposited data

How the results depend on the processing

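Every alternative was planned. Tug1 was lower in each, from -2.22 to -2.08 on the log2 scale, and between -2.22 and -2.15 with any one library removed. Called genes numbered 7353 to 8987, against 8773. Called members numbered 21 to 25, against 25, with 12 to 14 higher and 9 to 12 lower; when a library was left out they numbered 23 to 25. Called genes on the related lists numbered 60 to 79, against 79. The 12 isozyme pairs without overlap, one of them resting on under 10 counts of Pygl, remained 12 in number with counts plus 5 and without any one library. Whether the labels' numbers mark a pairing was left undecided. Between libraries of equal number, each taken relative to its group, the correlation was weak, at -0.00531, 0.0298 and 0.0270 for replicates 1 to 3. Control replicates 2 and 3 had their highest value with their own number, and control replicate 1 did not. With the replicate number as a block 8848 genes and 25 members were called, Tug1 was at -2.19, and no member changed its call. The block lowered the SE of Aldoa from 0.0470 to 0.0326 and that of Gpi from 0.0479 to 0.0372. It raised the SE of Pfkfb1, Slc16a3 and Gbe1. With library totals the median log2 fold change of all genes was 0.06 instead of 0.00, and 55.8% of called genes were higher instead of 50.0%.

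Of 33 members, 19 had 1 direction and 1 call throughout the 15 alternatives. Over the 495 gene and alternative combinations, 20 turned sign; without a turn of sign, 17 lost the call and 5 gained it. With the length offset Hk1 was at -0.163, Aldoa at 0.0722 and Tpi1 at 0.0445, and with the length offset and the replicate block at -0.162, 0.0715 and 0.0439. With library totals Gpi was at 0.0467 and Gbe1 at 0.0474, and with no filter Ldhb at -0.00246. When a library was left out, the genes that turned sign were near 0: Hk1 (-0.0144 to 0.0658), Ldhb (-0.0159 to 0.0413), Gpi (-0.0336 to 0.0383), Bsg (-0.0220 to 0.0429), Gys1 (-0.0287 to 0.0749) and Gbe1 (-0.0311 to 0.0251). The cause was not tested. Depth limits Pfkfb1, Slc16a3, Aldoc and Pygl, at 26 counts or fewer per library.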
